A study of Mus musculus with 5 samples.

Results

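The binding of NEUROD2, a neuronal transcription factor, was examined around 10 activity-regulated immediate early genes (Bdnf, Fos, Fosb, Junb, Arc, Npas4, Egr1, Egr3, Nr4a1 and Nr4a2). These genes were taken by name from 21938 protein-coding genes of the GENCODE M21 annotation. For each gene the span searched was its gene body plus 50 kb on each side in GRCm38 (mm10), and a peak belonged to the gene when it shared at least 1 bp with that span. All of the tissue was cerebral cortex of wild-type, untreated BALB/c mice at postnatal day 0, pooled from 5 littermates, and neuronal activity was not varied. NEUROD2-bound DNA was recovered by chromatin immunoprecipitation and sequencing (ChIP-Seq) by 3 antibodies against NEUROD2, each in 1 library. The paper lists these antibodies as ab168932, ab104430 and ab109406, in that order, without stating which was antibody 1, 2 or 3. A library of an unrelated GFP antibody served as the control in peak calling. It is not known if the antibodies shared 1 pool of mice, so the spread between antibodies covers the antibody and the library, and no condition was available to test. In whole cortex, strong binding in few cells and weak binding in many cannot be told apart, and the tissue label could not be checked because the peak lists hold no expression values.

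Immediate early genes are transcribed within minutes of synaptic activity, without new protein synthesis, when calcium entry activates factors such as CREB, SRF and MEF2 that are already bound near them. Fos, Fosb and Junb encode subunits of the dimeric factor AP-1, Egr1 and Egr3 encode zinc finger factors, Nr4a1 and Nr4a2 encode orphan nuclear receptors, and Npas4 encodes a basic helix-loop-helix factor that shapes inhibitory synapses. Arc and Bdnf act at the synapse itself, Arc in the internalisation of AMPA receptors and Bdnf as a secreted neurotrophin. NEUROD2 is a basic helix-loop-helix factor of excitatory cortical neurons that binds the E-box, CANNTG, and its expression and function are linked to calcium signals.

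The peaks of the 3 antibodies formed 21 merged sites in the spans of 6 genes, and no site lay in the spans of Bdnf, Arc, Egr3 and Nr4a2. A merged site is a run of peaks, of any antibody, that share at least 1 bp. Sequences of 6 of these sites are printed here, from the RefSeq copy of GRCm38 on the + strand, with every E-box in capitals. Of these, 3 are shared between antibodies, at Fos, Npas4 and Nr4a1, and 3 had a peak of 1 antibody and are shown for their E-boxes and not for their scores, which stood at percentiles from 28.4 to 38.3. The Junb site of all 3 antibodies lies mostly in exon sequence of Trir and is not printed. The first is the part common to the peaks of all 3 antibodies upstream of Fos (chr12:85436009-85436245). The next is the Fos site of antibody 2 with an E-box on each side of its midpoint (chr12:85455472-85455771). The third is taken from the part common to all antibodies in the span of Npas4, beside the gene Mrpl11 (chr19:4962001-4962146). The fourth is the part common to antibodies 1 and 2 in the span of Nr4a1 (chr15:101221826-101222004), and the fifth is the Nr4a1 site with 3 copies of CAGCTG (chr15:101229195-101229468). The last is the centre of a site in an intron of Hook2, upstream of Junb, with 5 E-boxes (chr8:84990873-84991172).
Fos, 37.7 kb upstream: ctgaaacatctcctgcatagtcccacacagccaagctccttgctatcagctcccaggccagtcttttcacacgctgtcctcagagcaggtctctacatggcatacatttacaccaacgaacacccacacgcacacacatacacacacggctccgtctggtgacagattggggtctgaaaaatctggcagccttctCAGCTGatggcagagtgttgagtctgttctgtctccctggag
Fos, 18.3 kb upstream: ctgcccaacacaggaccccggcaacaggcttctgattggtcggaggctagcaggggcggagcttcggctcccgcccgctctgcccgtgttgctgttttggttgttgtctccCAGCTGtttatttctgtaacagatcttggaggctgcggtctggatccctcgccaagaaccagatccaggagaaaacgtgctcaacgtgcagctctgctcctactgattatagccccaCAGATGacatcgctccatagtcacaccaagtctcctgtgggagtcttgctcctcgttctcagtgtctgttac
Npas4, 28.3 kb downstream: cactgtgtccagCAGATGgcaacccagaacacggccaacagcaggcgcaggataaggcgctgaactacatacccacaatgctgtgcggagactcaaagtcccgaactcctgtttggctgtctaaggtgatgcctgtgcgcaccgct
Nr4a1, 32.4 kb upstream: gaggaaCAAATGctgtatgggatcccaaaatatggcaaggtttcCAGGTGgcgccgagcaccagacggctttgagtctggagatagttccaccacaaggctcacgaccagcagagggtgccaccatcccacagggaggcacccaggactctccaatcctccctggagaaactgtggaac
Nr4a1, 24.9 kb upstream: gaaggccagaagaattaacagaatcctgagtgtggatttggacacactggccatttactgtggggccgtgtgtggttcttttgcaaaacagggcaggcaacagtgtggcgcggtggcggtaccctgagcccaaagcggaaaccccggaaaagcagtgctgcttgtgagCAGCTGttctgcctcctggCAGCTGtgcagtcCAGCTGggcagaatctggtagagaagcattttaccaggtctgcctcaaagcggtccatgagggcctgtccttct
Junb, 12.3 kb upstream: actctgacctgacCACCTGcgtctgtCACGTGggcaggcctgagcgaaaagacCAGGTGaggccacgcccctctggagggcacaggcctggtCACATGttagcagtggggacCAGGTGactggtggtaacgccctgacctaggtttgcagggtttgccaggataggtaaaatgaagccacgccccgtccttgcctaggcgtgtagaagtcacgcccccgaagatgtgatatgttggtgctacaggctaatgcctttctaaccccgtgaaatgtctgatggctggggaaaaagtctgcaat

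Each peak carried 1 score, minus 10 times the log10 of its p from MACS against the GFP reads. No peak scored below 50, the read depth behind the scores is unknown, and scores were not scaled between antibodies. The lists held 5202 peaks for antibody 1, 11196 for antibody 2 and 3164 for antibody 3, with median scores of 86.4, 93.9 and 76.7. A score is therefore also given as its percentile among all peaks of the same antibody. Distances were measured from the 5′ end of the gene to the midpoint of the site, in the direction of transcription.

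Fos, whose protein pairs with JUN proteins in AP-1, had 4 sites, all of them intergenic and upstream of the gene (chromosome 12, 85473890 to 85477273, + strand, ENSMUSG00000021250). Its span held the transcription start site (TSS) of no other protein-coding gene. In a search over all protein-coding genes, the TSS of Fos was the closest to each of the 4. The strongest site lay 37.7 kb upstream (85435964 to 85436467) and scored 277.25, 239.35 and 86.1 with antibodies 1, 2 and 3. These scores stood at percentiles 89, 85.1 and 57.2 of their lists, so the site ranked lower with antibody 3 than with the other two. It overlapped the annotated long noncoding RNA gene Gm40477. In the authors' deposited table of shared sites it had a summed score of 602.7, rank 953 of 2071, and was listed as intergenic with no gene assigned. This site held 2 E-boxes, a CAGCTG with its centre 9 bp before the midpoint and a CAGGTG 47 bp after it. The CAGCTG lay in the part common to all 3 peaks, printed above, and the CAGGTG lay outside the peak of antibody 3.

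The other 3 Fos sites had a peak of antibody 2 alone. They lay 36.5 kb (85437110 to 85437572), 18.3 kb (85455467 to 85455777) and 5.9 kb (85467880 to 85468120) upstream, with scores of 119.23, 77.03 and 61.25. Their percentiles were 62.2, 38.3 and 20.3, so the nearer the site to the gene, the lower was its score. Each held a CAGCTG or a CAGATG. No peak reached within 1000 bp of a Fos TSS, and the nearest edge of a peak was 5770 bp away.

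Fosb, a second FOS-family subunit of AP-1, had 1 site (gene on chromosome 7, 19302696 to 19310051, − strand, ENSMUSG00000003545). The site (19282594 to 19282847) had a score of 50.24 with antibody 2, at percentile 0.732 of that list and next to the lowest score kept. It lay 27.3 kb downstream of the Fosb start, in an exon of Rtn2 and 86 bp from a TSS of that reticulon gene. It contained no E-box and its GC content was 79.9%, the highest of the 21 sites. The span of Fosb held TSSs of 6 other protein-coding genes.

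Junb, which encodes a JUN-family partner of FOS proteins, had 5 sites, more than any other of the 10 genes (chromosome 8, 84974484 to 84978718, − strand, ENSMUSG00000052837). TSSs of 9 other protein-coding genes lay in its span, and the closest TSS to each of the 5 sites belonged to one of those genes. The site of all 3 antibodies (85026611 to 85027422) was 48.3 kb upstream of Junb and 194 bp from a TSS of Trir, in an exon of that gene. It scored 85.76, 320.96 and 140.85 with antibodies 1, 2 and 3, at percentiles of 49.4, 90.5 and 79.6. The value of antibody 2 was its highest in the 21 sites, whereas antibody 1 stood near the median of its list. The deposited table gives this site a summed score of 547.57, rank 1109, and assigns it to the promoter of 2310036O22Rik. A single E-box, CATCTG, lay 129 bp from the midpoint of this 812 bp site.

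A site of antibodies 2 and 3 lay 41.7 kb downstream of the Junb start, in an intron of Mast1 and 279 bp from a TSS of that gene (84936579 to 84937551). Its scores were 124.42 with antibody 2 and 76.4 with antibody 3, and it held 5 E-boxes over 973 bp. The other site of these antibodies (84995688 to 84996009) lay 17.1 kb upstream, in an exon of Hook2, a gene for a microtubule-linked adaptor. Both scores were low here, 50.56 with antibody 2 and 59.49 with antibody 3, at percentiles of 1.43 and 28.6. Of its 5 E-boxes, 4 were CAGCTG, and the density was 15.53 E-boxes per kb. The Hook2 intron site printed above (84990866 to 84991179) had a peak of antibody 2 alone with a score of 67.66 and 15.92 E-boxes per kb. It lay 381 bp from a TSS of Hook2. In Asna1, 673 bp from a TSS of that gene, antibody 2 gave a peak with a score of 61.96 (85024116 to 85024273). The Hook2 sites were the nearest to Junb, and the closest peak edge was 12148 bp from its TSS.

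**Figure D1:**
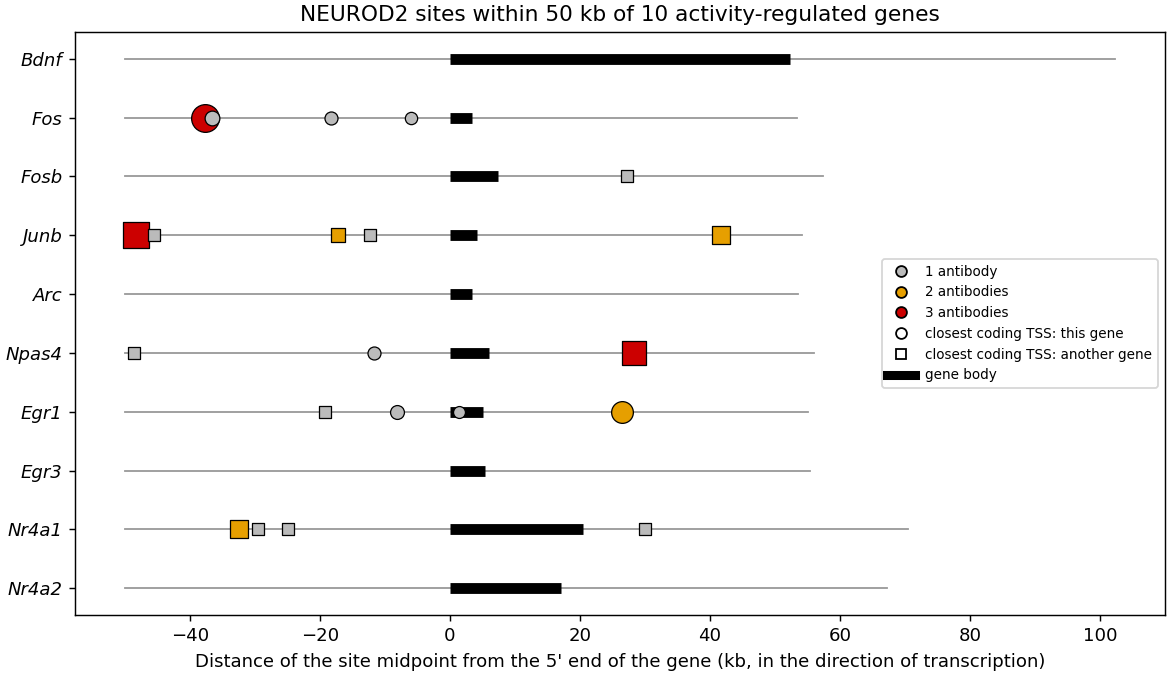
Position of the 21 merged NEUROD2 sites (x axis, kb from the 5′ end of each gene, in the direction of transcription) in the spans of the 10 genes (y axis). Black bars are gene bodies, grey lines the spans and colours the number of antibodies. Circles are the sites whose closest protein-coding TSS is that of the gene and squares the others. Larger markers have a higher score summed over the antibodies. The 3 sites of all antibodies lie 37.7 kb upstream of Fos, 48.3 kb upstream of Junb and 28.3 kb downstream of the Npas4 start, and 4 genes have no site.

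Npas4, whose protein is induced selectively by calcium influx in neurons, had 3 sites (chromosome 19, 4984355 to 4990316, − strand, ENSMUSG00000045903). The site of all 3 antibodies (4961868 to 4962217) lay 28.3 kb downstream of the Npas4 start and 104 bp from a TSS of Mrpl11, which encodes a protein of the mitochondrial ribosome. Antibodies 1, 2 and 3 scored 130.23, 199.83 and 107.33 there, at percentiles of 68.9, 80.5 and 68.6. This was the only site of the 21 whose score was at least 100 with every antibody. The deposited table lists it at the Mrpl11 promoter, with a summed score of 437.39 and rank 1426. Its E-boxes were a CACATG 104 bp and a CAGATG 27 bp before the midpoint, and the peak of antibody 3 covered only the CAGATG.

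The single Npas4 site for which Npas4 was the closest gene lay 11.7 kb upstream in intergenic sequence (5001727 to 5002216). It had a peak of antibody 2 alone, with a score of 76.67 at percentile 37.7, and held a CAGATG 18 bp after the midpoint. The third site (5038707 to 5039157) was 48.6 kb upstream, in an exon of B4gat1 and 25 bp from a TSS of that glycosyltransferase gene. Antibody 2 alone gave it a score of 62.76.

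Egr1, a zinc finger factor used widely as a marker of neuronal activation, was the only one of the 10 genes with a peak at its own TSS or in its gene body (chromosome 18, 34859823 to 34864984, + strand, ENSMUSG00000038418). That peak (34861027 to 34861417) had a score of 53.14 with antibody 2, at percentile 7.67, and neither antibody 1 nor antibody 3 had a peak there. Its midpoint lay in an exon, 1.4 kb after the 5′ end of the gene and 15 bp from an annotated internal TSS. It contained no E-box. A stronger site of antibodies 1 and 2 lay 26.5 kb downstream of the Egr1 start (34886077 to 34886517) in intergenic sequence, with scores of 183.21 and 159.61 at percentiles of 80.1 and 73.8. Antibody 3 had no peak at this site. The closest protein-coding TSS was that of Egr1, and all 3 of its E-boxes lay more than 100 bp from the midpoint.

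The Egr1 site 8.1 kb upstream (34851588 to 34851929) held 7 E-boxes in 342 bp, the most of any of the 21 sites, and 6 of them lay in its central 200 bp. Its density was 20.47 E-boxes per kb, and the forms CACCTG and CAGGTG accounted for 4 of the 7. The peak was of antibody 2 alone, with a score of 97.12 at percentile 51.6, so the site richest in E-boxes was not among the highest scores. The fourth site (34840355 to 34840842) had a score of 55.54 with antibody 2 and lay 10 bp from a TSS of Reep2. Egr1 had no site of all 3 antibodies within 50 kb, and the nearest one was 157666 bp from its TSS with a summed score of 1683.82.

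Nr4a1, an orphan nuclear receptor gene, had 4 sites, none of them shared by all 3 antibodies and none with a peak of antibody 3 (chromosome 15, 101254269 to 101274795, + strand, ENSMUSG00000023034). The site of antibodies 1 and 2 lay 32.4 kb upstream, between protein-coding genes (101221650 to 101222058), and 2334 bp from a TSS of Grasp, which encodes a scaffold protein. This site overlapped the annotated noncoding genes A330009N23Rik and AU021063. Its score was 68.61 with antibody 1 and 133.8 with antibody 2, at percentiles of 35.2 and 67.4. Of its 5 E-boxes, the CAAATG and the CAGGTG in capitals above lay in both peaks, 19 bp on either side of the midpoint.

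The remaining Nr4a1 sites each had 1 antibody. In introns of Grasp, antibody 2 had a peak with a score of 53.95 (101224706 to 101224973) and antibody 1 a peak with a score of 64.2 (101229195 to 101229468). Their midpoints lay 652 and 5144 bp from a TSS of Grasp, and the first peak also overlapped the noncoding gene A330009N23Rik. The second of these held the 3 copies of CAGCTG printed above, all after the midpoint and within 66 bp of it. The site farthest downstream (101284217 to 101284509) had a score of 68.79 with antibody 1, contained no E-box and lay 91 bp from a TSS of Atg101, an autophagy gene. The Grasp intron site with CAGCTG and the Atg101 site were the only 2 of the 21 with a peak of antibody 1 alone.

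Bdnf, Arc, Egr3 and Nr4a2 had no peak of any antibody in their spans. Bdnf has 9 annotated TSSs over a gene body of 52308 bp and no TSS of another protein-coding gene in its span (chromosome 2, 109674700 to 109727007, + strand, ENSMUSG00000048482). The peak nearest to any of these TSSs was of antibody 1, with a score of 110, at a distance of 98615 bp. For Arc, on chromosome 15 (74669083 to 74672570, − strand, ENSMUSG00000022602), the nearest peak was of antibody 2, with a score of 60.2, at 83287 bp from a TSS. For Egr3, on chromosome 14 (70077203 to 70082614, + strand, ENSMUSG00000033730), it was 74677 bp away with a score of 84.8 with antibody 2. The Arc span held TSSs of 4 other protein-coding genes, that of Egr3 held those of 1, and those of Bdnf and Nr4a2 held none. For Nr4a2, on chromosome 2 (57106830 to 57124003, − strand, ENSMUSG00000026826), the nearest peak was 139293 bp away and had a score of 58.1 with antibody 1. The nearest site of all 3 antibodies was 2556102 bp from Bdnf, 449752 bp from Arc, 382431 bp from Egr3 and 1200357 bp from Nr4a2. A peak below the lowest score of 50 would not be listed, so weaker binding at these 4 genes was not detectable in the peak lists.

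**Figure D2:**
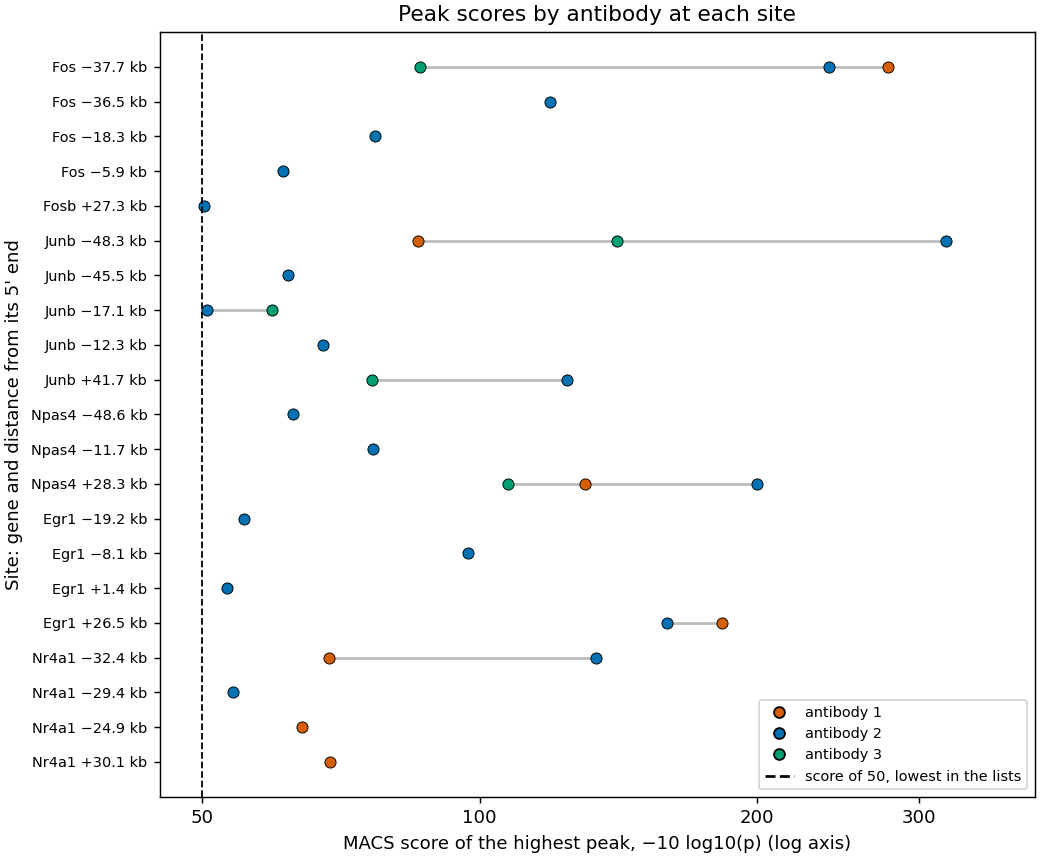
MACS score (x axis, log scale, minus 10 times the log10 of p) of the highest peak of each antibody at each of the 21 sites (y axis, gene and distance from its 5′ end), with grey lines joining antibodies at 1 site and a dashed line at the lowest score of 50. A score of at least 100 is reached at 7 sites, and 12 sites show a point of antibody 2 alone.

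The number of genes bound was set against all 21938 protein-coding genes searched in the same way. A peak of at least 1 antibody was present for 6 of the 10 genes (60%) and for 55.3% of all genes. Antibody 1 had a peak for 5 of 10 against 29.4% of all genes, antibody 2 for 6 of 10 against 52.7% and antibody 3 for 3 of 10 against 22.1%. With 10 genes, 1 gene more or less moves a share by 10 percentage points. Fos, Junb and Npas4 had a site of all 3 antibodies, 30% against 15.6% of all genes, and the same 3 genes had a row of the deposited table, against 15.5%. When every score had to be at least 100, Npas4 alone had such a site, 1 of 10 against 7.53% of all genes. Sites of both remaining antibodies were present for 3 of 10 genes without antibody 1 (19.5% of all genes), for 3 without antibody 2 (15.7%) and for 5 without antibody 3 (25.4%), where Egr1 and Nr4a1 were added. At TSSs the order was the other way round, with a peak within 1000 bp of a TSS for 1 of the 10 genes and for 19.9% of all genes. Likewise, a peak in the gene body was found for 1 of the 10 genes and for 25.2% of all genes. Counted over sequence, the spans of the 10 genes covered 1.13 Mb and held 18.67 sites per Mb, and the spans of all protein-coding genes held 6.36. TSSs of protein-coding genes were also denser in them, at 35.56 per Mb against 13.15. The part of gene density in these numbers was not tested.

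When the span was widened to 100 kb on each side, 9 of the 10 genes, all but Nr4a2, had a peak of at least 1 antibody, against 67.5% of all genes. With 10 kb on each side only Fos, Egr1 and Nr4a1 kept a peak, 30% against 35.2% of all genes. Sites of all 3 antibodies stayed at Fos, Junb and Npas4 with 100 kb, against 23.6% of all genes, and none was present with 10 kb, against 7.52%. The median gene length was 5687 bp for the 10 genes and 17425 bp for all protein-coding genes, so the gene bodies searched were shorter.

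**Figure D3:**
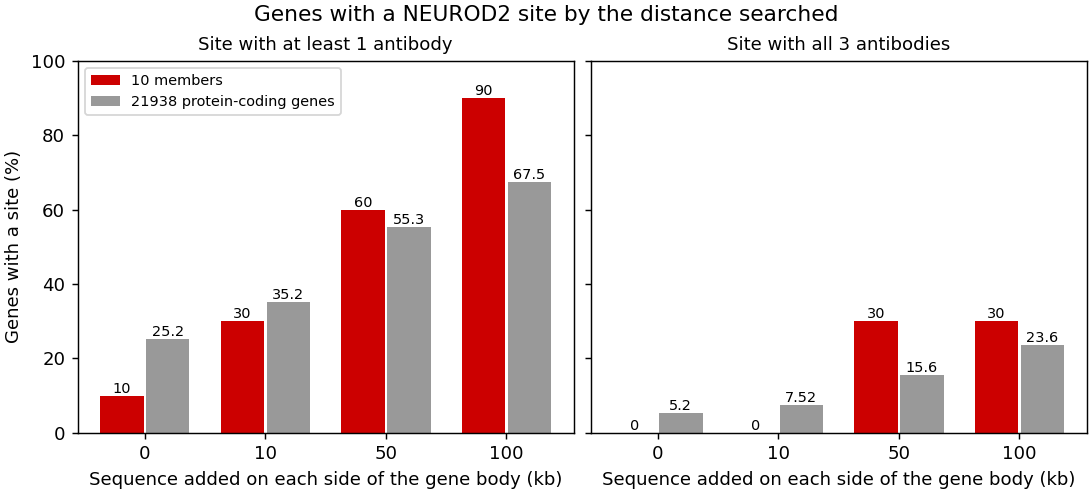
Share of genes (y axis, %) with a site of at least 1 antibody (left) or of all 3 antibodies (right) when 0, 10, 50 or 100 kb was added on each side of the gene body (x axis), for the 10 genes (red, "members") and for 21938 protein-coding genes (grey). For at least 1 antibody the 10 genes go from 10% to 90% and all genes from 25.2% to 67.5%.

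Of the 21 sites, 14 had a peak of 1 antibody, 4 of a pair of antibodies and 3 of all 3. Of the 12631 merged sites of the genome for which sequence was read, 8041 had a peak of 1 antibody and 2088 of all 3. The remainder of those had a pair. The share of sites of all 3 antibodies was 14.3%, against 16.5% of all merged sites. A peak of antibody 2 alone made up 12 sites (57.1%), against 52.2%. None of the 21 had a peak of antibody 3 alone, but the share of all merged sites with antibody 3 alone was not counted. Scores at the 21 sites ranged from 64.2 to 277.25 with antibody 1 (7 sites, median 85.8), from 50.24 to 320.96 with antibody 2 (19 sites, median 76.7) and from 59.49 to 140.85 with antibody 3 (5 sites, median 86.1). The median percentiles were 49.4, 37.7 and 57.2, so the peaks near these genes lay around the middle of each list, and below it for antibody 2.

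The closest protein-coding TSS was that of the immediate early gene itself for 8 sites, 4 at Fos, 3 at Egr1 and 1 at Npas4, and that of another gene for 13 (61.9%). Among the 27678 pairs of a protein-coding gene and a site in its span, another gene was closer in 62.3%. Within 1000 bp of a protein-coding TSS lay the midpoints of 11 of the 21 sites (52.4%), against 35.4% of all merged sites. Of these 11, 10 were at a neighbour's TSS, and 7 of the 11 were peaks of antibody 2 alone. The same shares among all merged sites within 1000 bp of a TSS were not counted, so neither count can be read as particular to these genes. By annotation 9 sites were intergenic (42.9%), 4 intronic (19%) and 8 exonic (38.1%), against 39.7%, 37.5% and 22.8% of all merged sites. Of the 21 sites, 15 lay upstream of the gene start (71.4%), against 34.8% of all pairs of gene and site, in which the side downstream of the start includes longer gene bodies. The median GC content was 57.6%, against 54.8% for all merged sites, and the median length was 350 bp against 340 bp.

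The 21 sites held 53 E-boxes, or 6.20 per kb (95% Poisson interval 4.64 to 8.11, covering counting error only). Flanking sequence of 2000 bp on each side of the sites held 5.37 per kb (4.88 to 5.89), and all merged sites of the genome held 8.01. The interval of the 21 sites thus included the density of their flanks, and also that of all merged sites near its upper bound. The 3 sites of all antibodies had 5 E-boxes in 1666 bp, 3.00 per kb (0.97 to 7.0), whereas all sites of 3 antibodies in the genome had 8.76 per kb, above that interval. The flanks of these 3 sites held 4.25 per kb (3.16 to 5.59), within the interval of the sites. The density rests on few E-boxes, and was 5.0 per kb in the central 200 bp of the 3 sites and 5.71 at the single site with every score at least 100. For sites of both remaining antibodies it was 5.07 without antibody 1, 4.06 without antibody 2 and 5.17 without antibody 3. Sites of a pair of antibodies had 8.39 per kb (4.97 to 13.26) and sites of 1 antibody 6.33 (4.27 to 9.04). An E-box in the central 200 bp was present in 15 of the 21 sites (71.4%), against 83.1% of all merged sites.

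CAGCTG was the most frequent form, with 20 of the 53 E-boxes (37.7%), against 21.6% of the E-boxes of all merged sites. CACCTG, or CAGGTG on the other strand, followed with 13 (24.5% against 16.2%). CAGATG, or CATCTG, had 11 (20.8% against 26.2%), and CAATTG and CATATG were not found. Counted by site, the shares were closer, with CAGCTG in 11 of the 21 sites against 44.6% of all merged sites, CACCTG or CAGGTG in 7 against 33.4%, and CAGATG or CATCTG in 11 against 52.7%. At least 1 copy of CAGCTG or of CAGATG, on either strand, was present in 17 of the 21 sites (81%), against 74.8% of all merged sites. The copies were unevenly spread, with 4 of CAGCTG in the Hook2 exon site near Junb and 3 in the Nr4a1 site of antibody 1 in Grasp.

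**Figure D4:**
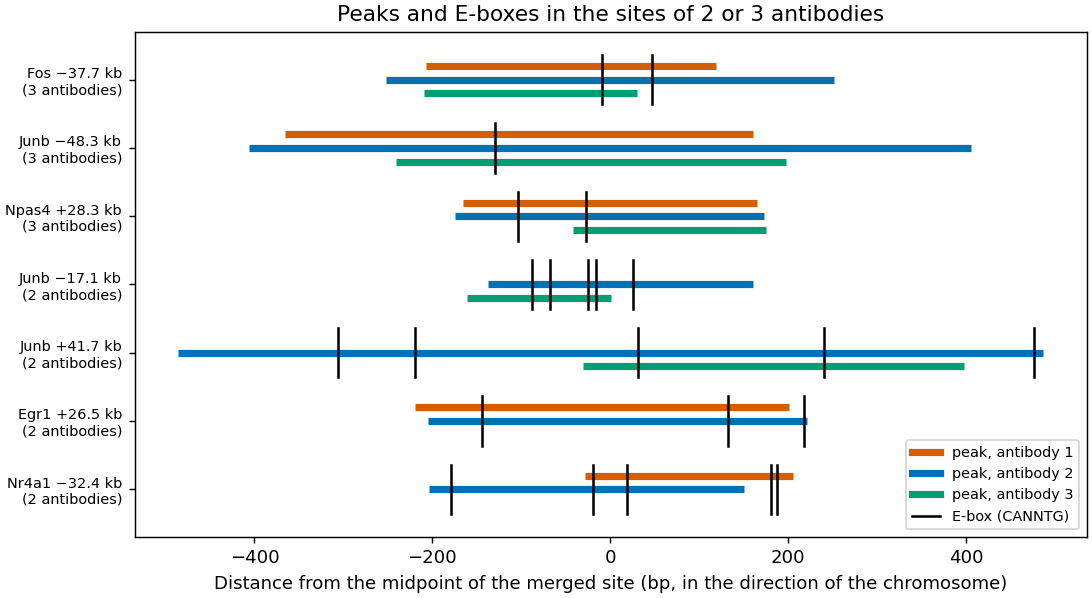
Extent of the peak of each antibody (coloured bars) and position of each E-box (black ticks) in the 7 sites of 2 or 3 antibodies, as distance in bp from the midpoint of the merged site in the direction of the chromosome (x axis). One E-box lies under all 3 peaks at each of the sites of all 3 antibodies, at Fos, Junb and Npas4. The Egr1 site and the Junb site of all 3 antibodies have none in their central 200 bp.

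Motifs of the activity-regulated factors were searched in the same sites on both strands. These were TGACGTCA (the cyclic AMP response element, bound by CREB), TGANTCA (AP-1), GCGNGGGCG (EGR proteins) and AAAGGTCA (NR4A proteins). None of the 4 was present in any of the 21 sites, over the whole site or its central 200 bp. These motifs can share letters with an E-box, but with no match there was no overlap to count. In all merged sites the central 200 bp held them in 0.515%, 4.34%, 2.99% and 0.428% of sites, so few matches or none would be counted among 21 sites at those shares.

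The promoters themselves, 250 bp before to 50 bp after a gene's start, were searched in a table of RefSeq promoters that held 13 of them for 7 of the 10 genes, and those of Arc, Egr1 and Egr3 were not analysed here. Of the 13, 9 held an E-box, against 72.3% of 32851 promoters of the genome. Bdnf, which has alternative promoters that answer to different stimuli, held an E-box in 6 of 7, and Fos held 3 E-boxes, Fosb 2 and Junb 1 in their single promoters. The promoters of Npas4, Nr4a1 and Nr4a2 held none. None of the 13 held the exact sequence TGACGTCA, but variants of it were not searched. Its share over all promoters was not counted, so this cannot be set against the genome. Thus Bdnf, Fos, Fosb and Junb had E-boxes in promoters at which no antibody had a peak.

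Other genes of the same response were counted alongside, in lists chosen with earlier results of these data known, so that the counts describe these genes and not activity-regulated genes in general. The first list held Egr2, Egr4, Fosl2, Jun, Nr4a3, Ier2, Dusp1, Homer1, Nptx2, Gadd45b, Btg2, Atf3, Per1, Sik1, Rgs2, Plk2, Inhba and Maff. Of these 18 further activity-regulated genes, 14 had a peak in the gene body plus 50 kb (55.3% of all genes did). Antibody 1 had a peak for 9 (29.4% of all genes), antibody 2 for 14 (52.7%) and antibody 3 for 5 (22.1%). A site of all 3 antibodies was present for 4 (Nr4a3, Maff, Per1 and Ier2), against 15.6% of all genes. A peak within 1000 bp of a TSS was present for 10 of the 18 and for 19.9% of all genes, with antibody 2 alone at all of the 10 but Nr4a3 and Rgs2. Nr4a3, the third NR4A receptor gene, carried a site of all 3 antibodies 225 bp upstream of its start (chromosome 4, 48044427 to 48045429), with scores of 404.3, 586.28 and 159.96. A second such site lay 2213 bp upstream, with scores of 162.73, 327.39 and 66.29. The NR4A genes thus differed, since Nr4a1 had sites of at most a pair of antibodies at a distance and Nr4a2 had none. Maff, a small MAF factor gene, had a site with a summed score of 661.38 in an exon, 10.9 kb after its start. The sites of Per1 and Ier2 had summed scores of 536.43 and 273.48 and were closest to Borcs6 and Cacna1a.

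The second list held 10 genes for factors that act upstream of immediate early genes, Creb1, Srf, Mef2a, Mef2c, Mef2d, Elk1, Crtc1, Crebbp, Ep300 and Camk4. Of these, 9 had a peak in the span, against 55.3% of all genes, all 9 with antibody 2 (52.7%), 5 with antibody 3 (22.1%) and 2 with antibody 1 (29.4%), and 2 had a site of all 3 antibodies, against 15.6%. Camk4, a kinase that phosphorylates CREB, had one in an intron with a summed score of 650.38. The site in the span of Mef2d had a summed score of 346.73 and was closest to Rhbg. Peaks within 1000 bp of a TSS were present for 3 of the 10, against 19.9% of all genes, and were of antibody 2 alone, at Srf (75.38), Mef2a (96.35) and Crebbp (77.41).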

How the data were processed

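NEUROD2 ChIP-Seq of mouse cortex gave 1 library for each of 3 antibodies. The authors used Bowtie for mapping to mm10 and MACS for peak calling, antibody by antibody, against the GFP library. Each deposited peak has 1 score (minus 10 times log10 of p). The deposited table of shared sites holds a score under the same label, a gene and a location. That score is called summed here because at the 3 sites of all antibodies it equalled the sum over the antibodies. Depth cannot be read from these values, and scores were not scaled between antibodies, so they were read mainly as percentiles within an antibody. A common score of 100 and the summed scores are descriptions on the raw scale.

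Peaks sharing at least 1 bp were merged over the genome, and gene spans and TSSs came from GENCODE M21. E-boxes were counted in the RefSeq GRCm38.p6 sequence. Intervals are exact Poisson at 95%. With 1 library per antibody, no test was run, and antibodies stood as replicates of the measurement. The 10 genes, the 2 further lists and the motifs were chosen with earlier results of these data known. Every site of the 10 genes is named. Of the further lists, genes with a site of all 3 antibodies are described by name, and Rgs2, Srf, Mef2a and Crebbp after their values were seen. Alternatives changed the span, the score threshold and the antibodies used. Procedures were tested on simulated data. The input DNA library was not used here. Python 3.11.15, numpy 2.4.6, scipy 1.17.1 and matplotlib 3.10.9 were used.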

Additional observations from a re-analysis of the deposited data

How the results depend on the processing

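Of 55 alternative values, 36 stayed within the limit set and 19 did not. The limit was 1.5 times the reported value for counts, and the Poisson interval for E-box densities. With 10 kb on each side of the genes, 3 genes kept a peak of at least 1 antibody, with 4 sites, and 0 genes and 0 sites had all 3 antibodies. With the gene body alone, 1 gene kept a peak, with 1 site, and again 0 had all 3 antibodies. With 100 kb the sites numbered 32. With scores of at least 100, 7 sites were left, 1 gene and 1 site had all 3 antibodies (Npas4, beside Mrpl11), 0 genes had a peak within 1000 bp of a TSS, and the density was 4.62 E-boxes per kb.

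Leaving out each antibody in turn gave 9 to 21 sites, 3 to 5 genes and 3 to 5 sites shared by both remaining antibodies, and 0 to 1 genes with a peak at a TSS. Antibody 2 decided the number of sites (9 without it) and the peak at the Egr1 TSS (0 without it). Sites of both remaining antibodies numbered 5 without antibody 1 and 5 without antibody 3, and without antibody 3 they lay at 5 genes (Fos, Junb, Npas4, Egr1 and Nr4a1). No E-box density of sites of all 3 antibodies could be given with 10 kb or the gene body alone, since no site remained. No paired analysis was possible because the results come from no test. Unknown depth and the lowest score of 50 limit what the lists can show, and antibody 2, with the longest list, gave most of the sites seen once.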
